A study of Mus musculus with 75 samples.

Results

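The genes described here encode apolipoproteins, the proteins on the surface of lipoprotein particles, and the protein that loads lipid onto them. They were taken from a list of 10 genes by symbol in the array annotation, and 6 of the 10 were analysed: Apob, Mttp, Apoc2, Apoc3, Apoa5 and Apoa2, out of 19147 genes tested. Apoa1, Apoa4, Apoe and Lipc were not analysed here. Mttp had 2 probe sets, and the one with the higher mean in each tissue was used; the other members had 1 each.

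Triglyceride-rich particles are built in the liver when microsomal triglyceride transfer protein, encoded by Mttp, moves lipid onto the growing chain of apolipoprotein B, encoded by Apob. Apolipoprotein C-II (Apoc2) is the cofactor that lipoprotein lipase needs to release fatty acids from these particles. Apolipoprotein C-III (Apoc3) slows that release and the uptake of remnants, while apolipoprotein A-V (Apoa5) favours it, and apolipoprotein A-II (Apoa2) is a major protein of high-density lipoprotein.

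Male mice gave liver and epididymal fat, and each tissue sample was read on its own one-colour array, 39 of liver and 36 of fat (75 in all). CB1 knockout (KO) mice lack cannabinoid receptor 1, the receptor through which cannabinoids act in brain, liver and fat. They descend from the line of Zimmer and were bred onto the C57BL/6 background; their control littermates are called wild type (WT) below. From 2 months of age they ate a high-fat diet (59.4% of energy from fat) or chow (13%) for 14 weeks. On 2 days they then received AM251, a CB1 inverse agonist, at 10 mg per kg by gavage, or the methylcellulose vehicle, and tissue was taken the next morning. The deletion is in the whole body, and KO mice received AM251 as well as WT mice. Groups held 5 arrays, except 4 for high-fat KO vehicle liver and 3 each for high-fat KO vehicle fat and chow KO AM251 fat. The labels number the mice, and p-values measure the spread between these arrays.

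The median intensity of an array lay between 25.8 and 28.7 for liver and between 44.29 and 48.04 for fat. The 9 measured hepatocyte markers were all above the median gene in liver, and the 6 measured adipocyte markers were all above it in fat, so each tissue carried its defining transcripts. Epididymis markers, 4 measured of 4 listed, also appeared in fat. Their sum reached 1992.5 in high-fat WT vehicle fat and 12545 in high-fat WT AM251 fat, with group medians of 293 and 300. In the other fat groups it reached at most 449. Neither Cnr1 probe set was clearly lower in KO than in WT vehicle mice: the brighter one in fat had a mean log2 intensity of 6.71 in both, and where it lies relative to the deleted part is not known here. Liver arrays of chow KO vehicle mice 17 and 15 were the least like the other liver arrays, with a mean correlation of 0.974 and 0.983 against a highest value of 0.992. Results that rest on those 2 liver arrays are given with and without them. Among fat arrays the least like the others were high-fat WT AM251 mouse 36 and high-fat WT vehicle mouse 1. Their mean correlations were 0.976 and 0.977, against a highest value of 0.990. In bulk tissue, fewer cells of a type and less RNA per cell cannot be told apart.

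Promoter sequence is shown for Apoc2 and Apob, the members whose transcript changed in at least 1 comparison below. Each run is the 250 bases before the RefSeq start on GRCm38.p6, read in the direction of transcription, with searched motifs in capitals. Apoc2 lies on the minus strand and the run covers chr7:19677942-19678191, with AGGTCA, a nuclear receptor half-site, at bases -115 to -110 from the start. Apob lies on the plus strand and the run covers chr12:7977427-7977676, with TATAAA, a match to the TATA box motif, at bases -60 to -55.
Apoc2: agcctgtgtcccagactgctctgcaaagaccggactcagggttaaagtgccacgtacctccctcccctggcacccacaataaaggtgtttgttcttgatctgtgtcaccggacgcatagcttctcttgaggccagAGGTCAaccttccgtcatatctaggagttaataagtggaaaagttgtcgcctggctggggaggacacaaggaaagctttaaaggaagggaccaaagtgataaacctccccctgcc
Apob: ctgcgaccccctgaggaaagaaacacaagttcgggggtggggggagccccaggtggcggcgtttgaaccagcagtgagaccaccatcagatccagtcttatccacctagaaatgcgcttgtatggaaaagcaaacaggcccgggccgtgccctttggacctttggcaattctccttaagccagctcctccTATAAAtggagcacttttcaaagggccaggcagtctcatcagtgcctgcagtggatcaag

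The 4 motifs searched, on both strands and with overlapping matches allowed, were AGGTCA, CAAAGTCCA (a form of the HNF4 site), CACGTG (the E-box) and TATAAA. Of 32851 RefSeq promoter windows of this length, 14.0% held AGGTCA, 0.384% CAAAGTCCA, 6.02% CACGTG and 12.4% TATAAA. Promoter entries matched 5 of the 6 members, all but Apoc3. AGGTCA was found for Apoc2 and, on the other strand, in 1 of the 2 windows of Apoa2; TATAAA was found for Apob, Apoa5 and the other window of Apoa2, and CACGTG for Apoa5. None of the 4 motifs was in the Mttp window. These matches describe letters in a window and say nothing of binding.

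The members were far brighter in liver than in fat. In chow WT vehicle mice, Apoa2 had a mean log2 intensity of 14.78 ± 0.03 in liver and 6.41 ± 0.69 in fat (SD, n = 5 each). Apoc2, the only member above the median gene in fat, had 11.77 ± 0.17 in liver and 7.23 ± 0.17 in fat, a 23.3-fold difference. The other 5 members were below the median gene in fat. No detection calls were used here, so whether their fat signal exceeds background is not known, and their differences, 4.82 to 8.37 on the log2 scale, are given without a fold or an order. All 6 passed limma's moderated test with Benjamini-Hochberg adjusted p-values of at most 3.05e-38, in a comparison where 79.4% of all genes passed. The median gene differed by -0.50 on the log2 scale, against 4.54 to 8.37 for the members, and with each array centred on its own median the members' differences were 5.25 to 9.07. Of the 5 chow WT vehicle fat arrays, 3 also had a raised mean of hepatocyte markers, described below with Apoa2 and Apoc3. At 3.54, the mean log2 intensity of Apob in fat lay above that of 9.91% of genes. Such ranks place signals of different probe sets and are no measure of transcript amounts.

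Liver levels of the members fell into a flat and a variable set. For Apoa2, the lowest and highest of 39 liver arrays were 14.61 and 14.82, and for Apoc3 14.12 and 14.39. Apoa2 and Apoc3 were 2nd and 8th in brightness among all genes of the liver, at a mean of 87.8% and 61.3% of the highest intensity in the table, and whether the scale is compressed there was not tested. Apoa5 ran from 13.24 to 13.72 and Mttp from 10.31 to 11.35. Apoc2 spanned 1.32 log2 units, and Apob, the structural protein of very-low-density lipoprotein, spanned 3.99. Group means of Apob ran over 1.76 log2 units, those of Apoc2 over 0.79, and those of Mttp, Apoa5, Apoc3 and Apoa2 over 0.33, 0.23, 0.09 and 0.05.

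Apoc2 rose on high-fat diet in WT mice, in both tissues. WT vehicle livers had Apoc2 log2 intensities of 12.21, 12.71, 12.07, 12.46 and 12.62 on high-fat diet, against 11.79, 11.79, 12.04, 11.60 and 11.64 on chow. The groups did not overlap, though the lowest high-fat array stood only just above the highest chow array. The log2 change was 0.64 ± 0.13 (SE), or 1.56-fold, with a limma adjusted p of 0.00423. Apoc2 was the only member called in this comparison, in which 1.69% of all genes were called.

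AM251-treated WT livers showed the same direction. Apoc2 stood at 12.14, 11.87, 11.86, 12.72 and 12.40 on high-fat diet, against 11.79, 11.65, 11.60, 11.77 and 11.78 on chow, again with no overlap. The change was 0.48 ± 0.13 (limma adjusted p = 0.0382), and 1.96% of genes were called, with Apoc2 the only member. This call was lost when any 1 of 8 arrays was left out: high-fat mice 33, 38 and 39 and all 5 chow mice (8, 10, 11, 12 and 13), with adjusted p of 0.0551 to 0.227. It was also lost with only the compared groups in the fit (0.111), and it held in 8 of 17 settings. The change itself stayed between 0.35 and 0.57 over those 17.

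KO livers gave smaller values that did not pass the test. Under vehicle, Apoc2 was 12.01, 12.15, 11.89 and 11.91 on high-fat diet and 11.92, 12.08, 12.02, 11.56 and 11.71 on chow, with overlap. The change was 0.13 ± 0.14 (limma adjusted p = 0.522) under vehicle and 0.25 ± 0.13 (adjusted p = 0.281) under AM251. The difference between the diet effects, KO minus WT under vehicle, was -0.51 ± 0.19, with an adjusted p of 0.125 and 4.17% of genes called. On high-fat diet Apoc2 was lower in KO than in WT livers by 0.42 ± 0.14 under vehicle (adjusted p = 0.15) and by 0.32 ± 0.13 under AM251 (adjusted p = 0.275), and neither passed. Over the 8 liver groups the order of means ran from high-fat WT vehicle (12.41) and high-fat WT AM251 (12.20) down to chow KO AM251 (11.62), and no neighbouring pair in that order differed by more than the larger SD of the pair.

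**Figure D1:**
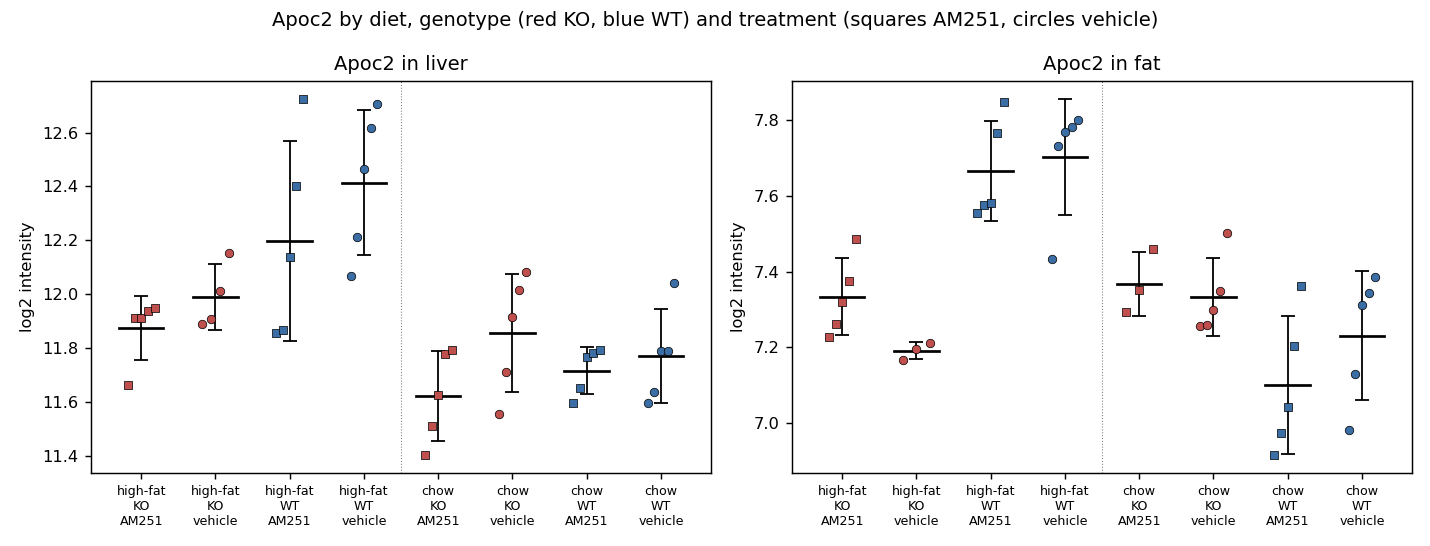
Apoc2 log2 intensity per array in liver (left) and fat (right), by diet, genotype and treatment, with the group mean and SD as lines. In both tissues the high-fat WT groups have the highest means, 12.41 and 12.20 in liver and 7.70 and 7.66 in fat under vehicle and AM251.

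In fat the genotypes separated. WT vehicle fat had Apoc2 log2 intensities of 7.77, 7.43, 7.73, 7.78 and 7.80 on high-fat diet, against 7.13, 7.39, 7.31, 7.34 and 6.98 on chow. The groups did not overlap. The change was 0.47 ± 0.09, or 1.39-fold (limma adjusted p = 0.000141), and 24.5% of all genes were called in this comparison, Apoc2 alone among the members. Under AM251 the WT values were 7.77, 7.85, 7.58, 7.55 and 7.58 on high-fat diet and 6.92, 7.36, 7.04, 6.97 and 7.20 on chow, a change of 0.57 ± 0.09 (limma adjusted p = 0.000265). There 9.55% of genes were called, and again the groups did not overlap.

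In KO fat Apoc2 did not pass the test between diets. Apoc2 stood at 7.20, 7.17 and 7.21 in high-fat KO vehicle fat and at 7.26, 7.50, 7.35, 7.30 and 7.26 in chow KO vehicle fat. These groups did not overlap, with the high-fat values below the chow values, opposite to WT. The change was -0.14 ± 0.10, with a 95% interval of -0.35 to 0.07, and in AM251-treated KO fat it was -0.03 ± 0.10, with an interval of -0.24 to 0.17. Neither passed limma's test (adjusted p = 0.874 and 0.925), in comparisons where 0.00522% and 0.81% of genes were called. The diet effect in KO minus that in WT vehicle mice was -0.61 ± 0.14 (limma adjusted p = 0.00728), with 6.34% of genes called. This difference passed in all 25 settings tried, at -0.68 to -0.55.

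On high-fat diet Apoc2 was lower in KO than in WT fat. The 3 KO vehicle arrays (7.20, 7.17 and 7.21) lay below all 5 WT vehicle arrays (7.77, 7.43, 7.73, 7.78 and 7.80), a change of -0.51 ± 0.10 with a limma adjusted p of 0.000568. Under AM251 the KO arrays had 7.49, 7.26, 7.32, 7.23 and 7.38, against 7.77, 7.85, 7.58, 7.55 and 7.58 in WT, a change of -0.33 ± 0.09 (limma adjusted p = 0.00912). Called genes made up 15.9% and 15.2% of all genes in these comparisons. On chow, Apoc2 was higher in KO than in WT fat by 0.10 ± 0.09 under vehicle and by 0.27 ± 0.10 under AM251, and neither passed (adjusted p = 0.765 and 0.144), with 0.0575% and 3.39% of genes called. In the order of the 8 group means in fat, the step below the pair of high-fat WT groups, 0.30 log2 units, was the only one above the larger SD of its neighbours.

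Macrophage markers moved with Apoc2 in fat. Of 8 measured macrophage markers (of 10 listed), 7 were higher on high-fat diet in WT vehicle fat and 4 in WT AM251 fat, and 7 were lower in KO than in WT fat on high-fat diet under either treatment. Their median change was 1.07 on high-fat diet in WT vehicle fat, against 0.02 for all genes. The summed marker intensity ran from 6832 to 18255 in high-fat WT vehicle fat and from 4990.5 to 14950.0 in high-fat WT AM251 fat. In the 6 other fat groups it ran from 3334.5 to 6197. Trem2, a lipid receptor of macrophages in obese fat, ranged from 9.30 to 12.13 in high-fat WT vehicle fat and from 6.70 to 8.09 in chow WT vehicle fat. The probe set of Lyz2, a defining macrophage enzyme, stayed between 2.89 and 3.29 on all fat arrays and was the only marker below the median gene.

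Within the 10 high-fat WT fat arrays, Apoc2 and the mean of the 8 macrophage markers had a Pearson r of 0.70 (permutation p = 0.0249, adjusted over 2 relations 0.0498) and a Spearman rho of 0.67 (permutation p = 0.038, adjusted 0.076). With group means removed r was 0.71, and without the 2 arrays farthest from the median of the marker mean it was 0.76. In the other 26 fat arrays r was -0.04 (permutation p = 0.856, adjusted 0.856) and rho -0.01 (permutation p = 0.97, adjusted 0.97), without the 2 farthest arrays r was -0.39, and with group means removed 0.43. Mesothelial markers moved too: 4 of 5 were lower on high-fat diet in WT vehicle fat and 5 of 5 were higher in KO than in WT fat on high-fat diet under vehicle. Epididymis markers had their highest sums in the high-fat WT groups, as given above. The part of these cells and of epididymis in the Apoc2 values was not tested.

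**Figure D2:**
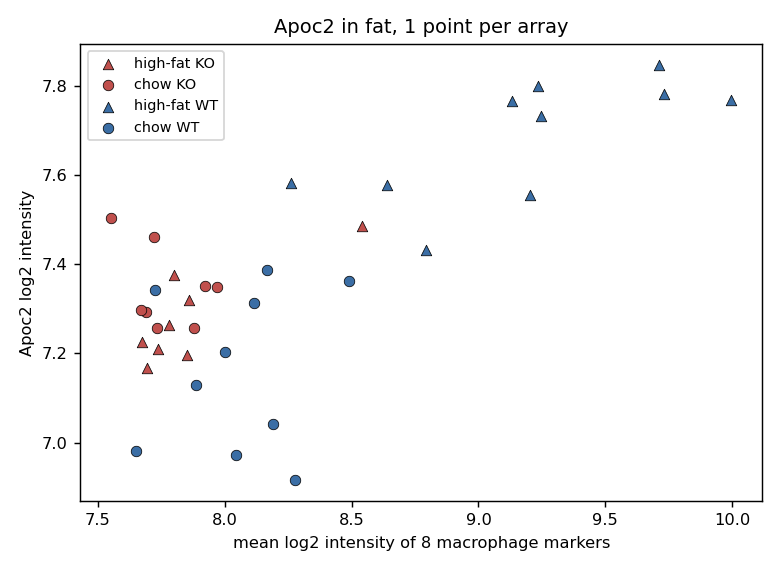
Apoc2 log2 intensity (vertical axis) against the mean log2 intensity of 8 macrophage markers (horizontal axis) on 36 fat arrays, 1 point per array, by diet and genotype. The 10 high-fat WT arrays (blue triangles) lie at the upper right, with r = 0.70 among them, and the other 26 show r = -0.04.

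In liver, macrophage markers ranged from 1327 to 2095 summed units in high-fat WT vehicle mice and from 1062 to 1764 in chow WT vehicle mice, with 1 of 8 called higher. Kupffer cell markers had a median change of 0.66 in that comparison, with none of 6 called. Their part in the liver value of Apoc2 was not tested.

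Apob, which gives each triglyceride-rich particle its backbone, was lowest in livers of chow-fed KO mice. Chow KO vehicle livers had Apob log2 intensities of 9.74, 9.61, 8.51, 11.53 and 10.30, against 12.50, 10.72, 11.02, 11.53 and 11.19 in chow WT vehicle livers. Mouse 17 was the lowest of all 39 livers and mouse 18 was among the WT values, so the groups overlapped. The change was -1.45 ± 0.33 (limma adjusted p = 0.00439), and 6.77% of genes were called, Apob alone among the members. Without mice 17 and 15, whose liver arrays stood apart from the others, it was -0.91 with an adjusted p of 0.192. It also missed the threshold with array weights (-1.20, adjusted p = 0.0535) and with only the compared groups in the fit (adjusted p = 0.23).

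AM251-treated chow livers gave the same direction without overlap. Apob stood at 10.79, 10.38, 10.87, 10.50 and 10.90 in chow KO AM251 livers and at 11.25, 11.87, 11.71, 11.86 and 11.76 in chow WT AM251 livers. The change of -1.003 ± 0.33 did not pass over all genes (limma adjusted p = 0.163), where 0.324% of genes were called, but passed with only the compared groups in the fit (adjusted p = 0.012). These 10 arrays do not include mice 17 and 15. On high-fat diet the genotypes were close, at 11.64 ± 0.32 (SD, n = 4) in KO and 11.64 ± 0.34 (SD, n = 5) in WT vehicle livers. The 95% interval of that change was -0.70 to 0.70. Apob in AM251-treated high-fat livers changed by -0.07 ± 0.33 between KO and WT, and called genes were 1.19% under vehicle and 2.3% under AM251, with no member among them.

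Set by diet, Apob was higher in high-fat KO livers than in chow KO livers. High-fat KO vehicle livers had 12.11, 11.42, 11.58 and 11.44, against 9.74, 9.61, 8.51, 11.53 and 10.30 in chow KO vehicle livers, with overlap only at mouse 18. The change was 1.70 ± 0.35, or 3.25-fold (limma adjusted p = 0.000755), in a comparison where 17% of all genes were called. Markers of other cell types also differed there: 2 of 6 endothelial markers were higher (Pecam1 by 0.73 and Stab2 by 0.44), as were 2 of 5 fibroblast markers (Dcn by 0.61 and Pdgfra by 0.56), 1 of 8 macrophage markers (Mrc1 by 0.64) and 1 of 9 hepatocyte markers (Ahsg by 0.26), while 1 of 5 mesothelial markers was lower (Krt19, -0.69). Summed fibroblast markers ran from 3759 to 5188 in high-fat KO vehicle livers and from 2654 to 3411 in chow KO vehicle livers, and summed endothelial markers from 1782 to 1948 and from 1373 to 1906.5 in the same groups. Also called were 2 of 4 intestine markers (Fabp2 and Lgals4) and 1 of 6 adipocyte markers (Adipoq). Without mice 17 and 15, 1 of the 2 endothelial markers (Stab2), Ahsg and Krt19 still passed, and Dcn, Pdgfra and Mrc1 did not. Fabp2 (0.74, limma adjusted p = 0.00559), Lgals4 (0.61, 0.0193) and Adipoq (-0.38, 0.0353) passed without those mice as well. The part of these cells in the Apob value was not tested. Without mice 17 and 15 the change was 1.16 with an adjusted p of 0.03, and with only the compared groups in the fit the adjusted p was 0.0537. Under AM251 the values were 11.17, 11.27, 11.97, 11.79 and 11.93 on high-fat diet and 10.79, 10.38, 10.87, 10.50 and 10.90 on chow, with no overlap. That change of 0.94 ± 0.33 missed the threshold (limma adjusted p = 0.106, 2.64% of genes called), but passed with only the compared groups in the fit (0.00768) or array weights (0.0303).

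In WT livers the diet change of Apob was 0.25 ± 0.33 under vehicle and 0.01 ± 0.33 under AM251, and neither passed (limma adjusted p = 0.845 and 0.998). The diet effect in KO minus that in WT vehicle mice was 1.45 ± 0.48 with a limma adjusted p of 0.0726. It was 1.85 (adjusted p = 0.00457) without chow KO vehicle mouse 18, 1.62 (0.0447) without chow WT vehicle mouse 2, and 0.91 (0.328) without mice 17 and 15. The contrasts above share the chow KO vehicle arrays. Hepatocyte markers had a summed intensity of 133460 to 146510 in chow KO vehicle livers and 128580 to 137540 in chow WT vehicle livers and none of 9 called. Of 6 Kupffer cell markers, 3 were higher in chow KO than in chow WT vehicle livers, 0 of them without mice 17 and 15, and their part in the result was not tested.

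**Figure D3:**
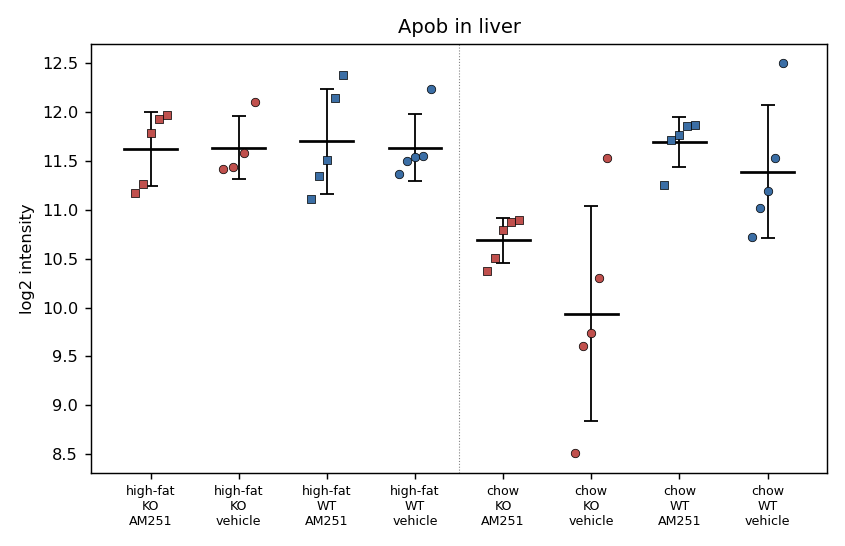
Apob log2 intensity per liver array by diet, genotype and treatment, with the group mean and SD as lines. Chow KO vehicle arrays spread from 8.51 to 11.53, chow KO AM251 arrays lie between 10.38 and 10.90, and the 6 other group means lie between 11.39 and 11.70.

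AM251 itself moved none of the 6 members past the threshold, in 4 liver and 4 fat comparisons. Called genes were 1.91% in high-fat WT liver, 0.0104% in high-fat KO liver, 0% in chow WT liver and 0.125% in chow KO liver. In fat they were 1.11% in high-fat WT, 0% in high-fat KO, 0% in chow WT and 0.0157% in chow KO mice. The comparisons with 0 calls by limma had 2066, 712 and 2559 genes at an unadjusted p under 0.05, in chow WT liver, high-fat KO fat and chow WT fat. In the AM251 comparisons the largest liver value of a member was that of Apob in chow KO mice, 0.75 ± 0.33 (limma adjusted p = 0.295). Those livers had 10.79, 10.38, 10.87, 10.50 and 10.90 under AM251, against 9.74, 9.61, 8.51, 11.53 and 10.30 under vehicle. The value was 1.15 with an adjusted p of 0.0305 without vehicle mouse 18, and 0.21 (0.919) without mice 17 and 15.

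Apoc2 was lower under AM251 than under vehicle in all 4 liver comparisons, by 0.05 to 0.23 log2 units, with adjusted p of at least 0.421. In high-fat WT liver, the comparison that addresses the drug in high-fat-fed mice that have the receptor, its change was -0.22 ± 0.13, with a 95% interval of -0.48 to 0.05. For Apoa2, Apoc3, Apoa5 and Mttp, AM251 changes in liver lay between -0.07 and 0.15. The 95% intervals of these 4 members reached no further than 0.40 from 0 in any liver AM251 comparison. No difference of the AM251 effect between genotypes or diets passed for any member. Called genes in those differences were 0.564% for WT minus KO on high-fat diet, 0% for WT minus KO on chow and 0.251% for high-fat minus chow in liver, and 0.407%, 0.00522% and 0% in fat. In the chow liver difference 1437 genes had an unadjusted p under 0.05 by limma, and 2001 in the last fat one.

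**Figure D4:**
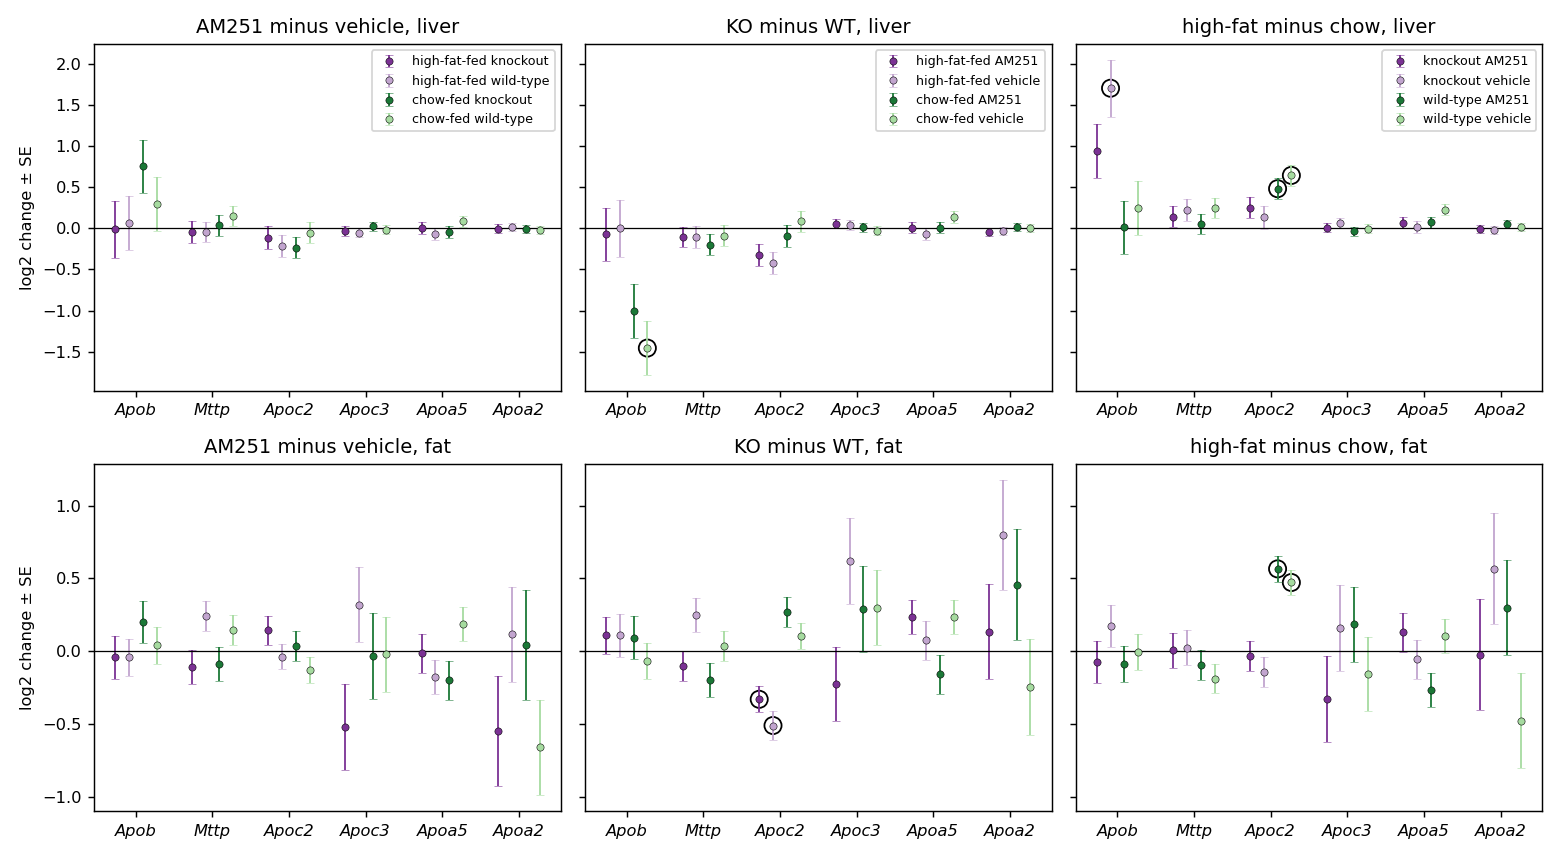
Log2 change ± SE of each member, AM251 minus vehicle (left), KO minus WT (middle) and high-fat minus chow (right), in liver (top) and fat (bottom), with 4 comparisons per member in colour. Black rings mark the 8 values that passed limma's test, Apob and Apoc2 in liver and Apoc2 alone in fat.

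Mttp, which lipidates apolipoprotein B, was higher on high-fat diet by 0.24 ± 0.12 in WT vehicle and by 0.22 ± 0.13 in KO vehicle livers, and neither passed (limma adjusted p = 0.433 and 0.238). WT vehicle livers ranged from 10.76 to 11.35 on high-fat diet and from 10.37 to 11.05 on chow, with overlap. For the same diet change, the dimmer probe set in liver gave 0.17 ± 0.08 in WT and only 0.04 ± 0.09 in KO vehicle mice. In fat its probe sets also disagreed in size: for high-fat minus chow in WT vehicle mice the brighter one gave -0.19 ± 0.10 and the other -0.62 ± 0.15. The mean of both fell by 0.41 with a limma adjusted p of 0.00355, where the brighter one alone had 0.194. The larger fall came from the dimmer probe set, with a mean log2 intensity of 4.48 in fat, where the median gene had 6.32. Whether its signal there exceeds background is not known.

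Apoa5 in WT vehicle livers stood at 13.54, 13.53, 13.45, 13.62 and 13.72 on high-fat diet and at 13.32, 13.29, 13.39, 13.44 and 13.31 on chow. These groups did not overlap, and the change was 0.23 ± 0.07. It missed the threshold (limma adjusted p = 0.0824) and passed with 16 added before the log (0.0352) or dim genes left out (0.0485). In the 3 other diet comparisons of liver Apoa5 changed by 0.02 to 0.07. Apoa2 changed by -0.05 to 0.05 and Apoc3 by -0.05 to 0.07 over all 12 liver comparisons of drug, genotype and diet, and none passed. The SD within liver groups was 0.01 to 0.08 for Apoa2.

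In fat, Apoa2 ran over 5.39 to 7.55 and Apoc3 over 5.51 to 7.28 on single arrays, and neither passed in any fat comparison. On high-fat diet under vehicle they were higher in KO than in WT fat by 0.80 ± 0.38 and 0.62 ± 0.29 (limma adjusted p = 0.168 and 0.171). Apoa2 in high-fat KO vehicle fat was 6.12, 6.52 and 7.55, and in chow KO vehicle fat it was 7.27, 5.75, 5.40, 5.39 and 7.00. The mean of 9 hepatocyte markers varied on the same arrays: it was 6.19 to 6.59 on 7 fat arrays and 5.45 to 5.91 on the other 29. The 7 arrays were high-fat KO vehicle mouse 44, chow KO AM251 mouse 23, chow KO vehicle mice 15 and 19 and chow WT vehicle mice 1, 2 and 3. Apoa2 ranged from 6.59 to 7.55 on the 7 arrays and from 5.39 to 6.66 on the 29. For Apoc3 the ranges were 6.15 to 7.28 and 5.51 to 6.86. Alb, the albumin gene and 1 of the 9 markers, had ranges of 7.18 to 8.49 and 4.14 to 7.22. Its separation is partly built in, since the arrays were divided by the mean of these markers. Of the 9 markers 8 were below the median gene in fat, the exception being Cyp2e1, which fat also expresses. Fga and Fgb were highest, at 5.57 and 5.51, in chow WT vehicle and chow KO vehicle fat. Not every marker followed Alb. Ttr stayed between 3.59 and 4.15 on all fat arrays and Ahsg between 4.62 and 5.82. Hpx was highest, at 6.62, in high-fat WT AM251 fat, a group with none of the 7 arrays.

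Within the 29 arrays, Apoa2 and the marker mean had a Pearson r of 0.55 (permutation p = 0.0016, adjusted over 12 relations 0.0192) and a Spearman rho of 0.45 (permutation p = 0.0141, adjusted 0.169). The Pearson r fell to 0.33 without the 2 arrays farthest from the median of the marker mean, so it rests in part on them. With group means removed it was 0.46. Within the 7 arrays r was -0.21 (exact permutation p = 0.609, adjusted 0.913). For Apoc3 r was 0.32 in the 29 arrays (permutation p = 0.0861, adjusted 0.517), and 0.09 with group means removed. For Apoc2 r with the marker mean was 0.02 in the 29 arrays (permutation p = 0.919, adjusted 0.919). In the 7 arrays it was -0.42 (exact permutation p = 0.335, adjusted 0.913), and 0.67 without the 2 farthest. Where the hepatocyte transcripts came from, and their part in the values of the members in fat, was not tested.

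**Figure D5:**
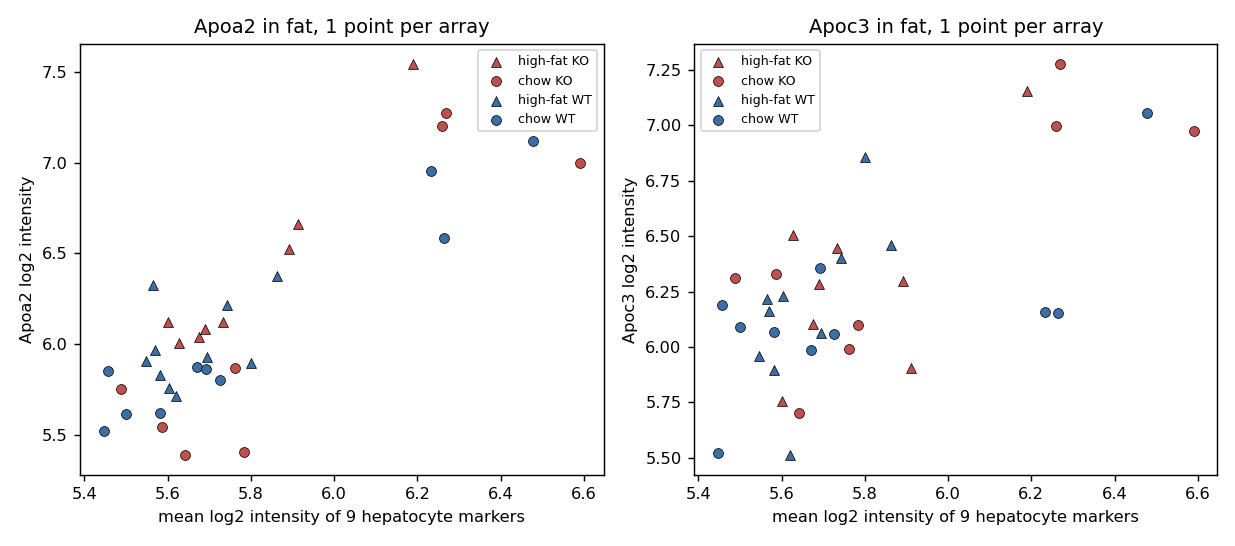
Apoa2 (left) and Apoc3 (right) log2 intensity in fat against the mean log2 intensity of 9 hepatocyte markers, 1 point per array, by diet and genotype. A set of 7 arrays from 6.19 upward on the horizontal axis holds 6 of the 7 highest Apoa2 values.

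Assembly partners of apolipoprotein B, 13 measured of 15 listed, were set beside Apob. In high-fat minus chow KO vehicle livers 3 rose and 0 fell, with a median of 0.19, against -0.08 for all genes, in a comparison where 17% of all genes were called, so that the count of 3 of 13 is near the background. Mia2, part of the machinery that loads large cargo for export from the endoplasmic reticulum, rose by 2.12 ± 0.39 (limma adjusted p = 0.000258), Cideb, a lipid-droplet protein that takes part in particle lipidation, by 0.44 ± 0.08 (0.000204), and the coat subunit Sec24a by 0.79 ± 0.22 (0.0109). In chow KO minus chow WT vehicle livers 2 fell and 0 rose, with a median of -0.10 against 0.04 for all genes and 6.77% of all genes called. Mia2 fell by 1.45 ± 0.37 (0.011) and Cideb by 0.27 ± 0.07 (0.0202). Both comparisons share the chow KO vehicle arrays. Without mice 17 and 15 neither fall passed, at -0.70 (0.298) for Mia2 and -0.20 (0.31) for Cideb. In the diet comparison Mia2 (1.36, 0.00507) and Cideb (0.37, 0.00854) then passed and Sec24a (0.27, 0.349) did not.

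Liver transcription factors, 15 measured of 20 listed, showed 4 higher and 2 lower in high-fat minus chow KO vehicle livers, where 17% of all genes were called. Rora rose by 1.24 ± 0.20 (limma adjusted p = 3.85e-05) and Ppara, the fatty acid sensor, by 1.02 ± 0.18 (0.000157), while Srebf2, which drives cholesterol synthesis, fell by 0.55 ± 0.13 (0.00347) and Pparg fell by 0.65 ± 0.18 (0.0124). Without mice 17 and 15, 3 of these 6 passed: Rora (0.87, 0.000541), Ppara (0.84, 0.00558) and Srebf2 (-0.49, 0.0398). On high-fat diet Pparg was lower in KO than in WT livers by 1.19 ± 0.18 under vehicle (0.000326) and by 0.87 ± 0.17 under AM251 (0.00155). Creb3l3, a liver factor that drives Apoc2 and Apoa5 in mice, was the only listed factor past the threshold for AM251 in high-fat WT liver, at 0.60 ± 0.11 (0.00139). Tm6sf2, which takes part in lipidation of very-low-density lipoprotein, changed by -0.79 ± 0.18 there (0.0101). The members' own AM251 values in that comparison ran from -0.22 to 0.06.

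Receptors and uptake genes, 10 measured of 13, included Cd36, a fatty acid carrier. In high-fat KO against WT livers Cd36 changed by -1.85 ± 0.34 under vehicle (limma adjusted p = 0.00185) and by -2.14 ± 0.32 under AM251 (2.21e-05), and it was higher on high-fat diet in WT vehicle livers by 1.44 ± 0.32 (0.00957). Vldlr, the receptor for very-low-density lipoprotein, was lower in KO high-fat vehicle livers by 0.72 ± 0.16 (0.0108). Among 11 measured lipase and HDL genes of 12, Abcg5 and Abcg8, the pair that secretes sterols into bile, rose on high-fat diet in WT AM251 livers by 0.84 ± 0.15 (0.000313) and 0.76 ± 0.15 (0.00229). In KO vehicle livers they rose by 0.66 ± 0.16 (0.00317) and 0.80 ± 0.16 (0.000805), and without mice 17 and 15 by 0.59 (0.03) and 0.66 (0.0196). In WT vehicle livers Abcg5 rose by 0.62 ± 0.15 (0.0168). Of the 8 measured other apolipoprotein genes of 10, Apom, an HDL protein, was higher in KO than in WT high-fat vehicle livers by 0.66 ± 0.14 (0.0103). Apof and the Apob editing enzyme Apobec1 rose in high-fat against chow KO vehicle livers by 0.40 ± 0.09 (0.00165) and 0.59 ± 0.14 (0.00359), and both passed without mice 17 and 15.

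Beside Apoc2 in fat, 2 of the 8 other apolipoprotein genes rose on high-fat diet in WT vehicle mice, a share near the 24.5% called among all genes. Apobec1 rose by 2.19 ± 0.28 (limma adjusted p = 1.67e-06) and the apolipoprotein B receptor Apobr by 1.02 ± 0.18 (6.18e-05). Both were lower in KO than in WT high-fat vehicle fat, with changes of -2.25 ± 0.33 (2.51e-05) for Apobec1 and -1.20 ± 0.21 (0.000132) for Apobr. Their diet effects also differed between genotypes, at -2.08 ± 0.43 (0.00489) and -1.14 ± 0.27 (0.0115). Of the lipase and HDL genes, the cholesterol exporter Abcg1 rose by 1.42 ± 0.16 (5.49e-07) and the phospholipid transfer protein gene Pltp by 0.93 ± 0.18 (0.000261) on high-fat diet in WT vehicle fat. In all, 2 of 11 rose and 2 fell, where 24.5% of all genes were called, and whether the list differs from that share was not tested. The 2 that fell are not described here. The list median was 0.09 against 0.02 for all genes.

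The genes whose level followed the members most closely over the 39 liver arrays are named as a description, since the arrays share groups. For Apob these were Vma21 (Pearson r = 0.92), Gigyf2 (0.91) and Dhx9 (0.91), and without mice 17 and 15 they had r of 0.86, 0.86 and 0.84. With group means removed r was 0.80, 0.90 and 0.82, so these genes also varied together within groups. Apoc2 was followed by Wfdc2 (0.87), the gene of pyruvate carboxylase Pcx (0.82) and Ifi27l2b (0.82), and with group means removed r was 0.73, 0.60 and 0.54. For Mttp they were Ghitm (0.78), Pitpna (0.73) and Rab34 (0.72), and for Apoa5 Slc25a47 (0.76), Sumf1 (0.64) and Rgs16 (0.63). Pitpna had a Spearman rho of only 0.49 with Mttp.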

How the data were processed

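Arrays of liver and epididymal fat were grouped by tissue, diet, genotype and treatment from their titles. The deposited values are probe set intensities on a linear scale, obtained by the authors with RMA (background correction, normalization and summary of probes) per the submitters' processing notes; software versions and detection calls are not given in the sources used here. Values were turned to log2, and 19147 genes with a probe set of 1 symbol were each represented by their brightest probe set in the tissue. limma 3.58.1 (R 4.3.3) was used to fit group means over all groups of a tissue (all 16 groups between tissues), with two-sided moderated tests, Benjamini-Hochberg adjustment over all genes and a threshold of 0.05 on the adjusted p. Recovery was tested on simulated data. Correlations used 100000 permutations, or all orders under 10 arrays, over all arrays of a set and not within groups.

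Members and lists were chosen with earlier results of these data known. All members are named, with up to 4 called genes per list and comparison, Cnr1, and the 3 genes most like each of the 4 most variable liver members. Alternatives were another normalization, offset, weighting, probe set rule, filter, prior, fit by compared groups, and arrays left out. The number of arrays limits the precision. Promoters came from RefSeq.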

Additional observations from a re-analysis of the deposited data

Results flagged for a closer look

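In 9 of 84 combinations of a member and a group of 4 or 5 arrays, 1 array stood apart by Dixon's test, where chance gives about 1 in 20, or 4.2. In liver these were Apoa2 in chow WT AM251 mouse 12 (14.61, others from 14.77), Apob in high-fat WT vehicle mouse 3 (12.24, others up to 11.55), Apob in chow WT AM251 mouse 10 (11.25, others from 11.71), Apoc2 in high-fat KO AM251 mouse 47 (11.66, others from 11.91), Apoc3 in high-fat WT vehicle mouse 1 (14.18, others from 14.27) and Mttp in high-fat WT AM251 mouse 33 (11.12, others up to 11.01). In fat they were Apoa2 in high-fat KO AM251 mouse 46 (6.66, others up to 6.12), Apoa5 in high-fat KO AM251 mouse 50 (5.13, others from 5.50) and Apoc2 in high-fat WT vehicle mouse 3 (7.43, others from 7.73).

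Of 48 tested differences between effects, 1 passed: the high-fat effect on Apoc2 in vehicle fat was -0.61 log2 units in KO minus WT mice, a difference tested in the limma fit itself (adjusted p = 0.00728).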

How the results depend on the processing

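No called change of a member changed sign under any setting tried. Counts of called members that moved from 1 to 0 did so for KO minus WT in chow vehicle liver (array weights, only the compared groups, without mice 17 and 15), for high-fat minus chow in KO vehicle liver and in WT AM251 liver (only the compared groups), and in WT AM251 liver without single arrays (counts from 0 to 1). Counts that moved from 0 to 1 did so for KO minus WT in high-fat vehicle liver (Apoc2, -0.44, adjusted p = 0.0358) and high-fat minus chow in KO AM251 liver with array weights, for KO minus WT in chow AM251 fat with array weights (Apoc2, 0.31, 0.0469), for Apob with only the compared groups (KO minus WT in chow AM251 liver and high-fat minus chow in KO AM251 liver), and for the diet effect on Apob, KO minus WT, in liver (1.45, 0.0494, dim genes left out). Leaving out single arrays gave 0 to 1 for that diet effect and for AM251 in chow KO liver. In high-fat minus chow WT vehicle mice the count became 2 with 16 added or dim genes left out in liver, and with the mean of probe sets in fat. The setting without mice 17 and 15 was chosen after seeing the data. With a replicate block on shared mouse numbers Apoc2 missed the threshold on high-fat diet in WT vehicle mice, at 0.64 (0.0631) in liver and 0.49 (0.0611) in fat, so 0 members were called in each. Between arrays of the same number, correlations of deviations ran from -0.17 to 0.22, and not every array was most like its own number. This gave no clear sign of pairing, but it cannot tell whether liver and fat of 1 number came from the same mouse. Counts of called genes over all 19147 moved by over 1.5 times in several comparisons, among them KO minus WT in chow vehicle liver (1297, alternatives 3 to 1991), high-fat minus chow in KO vehicle liver (3252, 823 to 3567) and in WT vehicle fat (4689, 2145 to 4900), AM251 in high-fat WT fat (213, 20 to 632) and in chow KO liver (24, 0 to 351), and liver minus fat (15211, 8440 to 15389).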
